A study of Mus musculus with 12 samples.

Results

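The AP-1 transcription factor subunits are described here as 9 genes: Fos, Fosb, Fosl1, Fosl2, Jun, Junb, Jund, Atf3 and Maff. They were chosen by gene symbol from a table of raw read counts that holds 55573 genes, and all 9 were among the 13836 genes that passed the filter on low counts. RNA was sequenced from spheres grown in suspension from the mouse spindloid lines A1005, A1129 and A1471. Each of these 3 lines was derived from a mammary tumour that carried an activated Met receptor transgene under the MMTV promoter together with Cre and 1 floxed Trp53 allele (Trp53fl/+). All 4 treatment groups share this genotype, so none of them is a normal mammary control. Exposure lasted 24 h and was to DMSO, to Crizotinib, an inhibitor of the Met receptor, to PD173074, an inhibitor of FGF receptors, or to both (Combo), each inhibitor at 1 µM. There was 1 library for each line and treatment, so n = 3 cell lines per treatment in 12 libraries, and the spread is the spread between lines.

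AP-1 is a family of dimers of basic leucine zipper proteins that bind short DNA elements called the TRE and the CRE. Fos proteins cannot form stable dimers with each other and bind DNA as partners of Jun proteins, whereas Jun proteins also pair among themselves. Receptor tyrosine kinases act on AP-1 through the MAP kinases, which raise transcription of several of the genes and stabilise some of the proteins, FRA1, the product of Fosl1, among them. The comparisons therefore address how the transcript levels of the subunits stand when Met signalling, FGFR signalling or both are inhibited.

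The total per library was 13031492 to 17750476 counts. Levels are given as CPM, read counts scaled to the TMM-normalized size of each library, and a member was called changed where the adjusted p of edgeR's quasi-likelihood test was under 0.05 across all 13836 genes. Libraries of a line deviated together, and a second fit therefore took the cell line as a block. The cells are labelled spindloid, and Vim, the mesenchymal intermediate filament, stood at 2890 ± 353 CPM (SD, n = 3) in DMSO. The sum of the 8 mesenchymal markers was 3503 to 5232 CPM in DMSO and 3597 to 9749 CPM in Combo, but Cdh2 and Snai2 were near 0 in DMSO, at 0.0721 and 0.133 CPM, and Twist1 fell in Combo (log2 fold change -1.09, adjusted p = 0.00156). The sum of the 9 epithelial markers was 16.2 to 75.2 CPM in DMSO and 7.85 to 53.4 CPM in Combo, with Krt18 at 20.01, Krt19 at 14.7 and Krt8 at 7.06 CPM in DMSO, and with Krt5 at 0 in every group. The summed level of the 4 endothelial markers was at most 0.752 CPM in any library. Of the 6 immune markers, 3 were at 0 in DMSO and 2 in Combo, and their sum ranged from 4.47 to 31.5 CPM in DMSO and from 8.30 to 42.0 CPM in Combo. The sum of 5 fibroblast markers ranged from 139 to 335 CPM in DMSO and from 345 to 947 CPM in Combo, a shift that accompanies the AP-1 differences below and whose part in them was not tested. Lum was at 0 in DMSO, and Col1a1 differed widely between lines, at 76.2 ± 132 CPM in DMSO and 253 ± 438 CPM in Combo (SD, n = 3). Of the 4 tested, 0 were called for Combo against DMSO in the unpaired fit (14.4% of all genes) and 4 rose with the block (54.8%). In bulk RNA, fewer cells of a type and less RNA per cell cannot be told apart.

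Per kilobase of annotated exon, Fosl1 was the highest of the 9 transcripts in DMSO, at 163 ± 16.2 CPM per kb (SD, n = 3). Jund stood at 72.3 ± 1.19, Junb at 66.0 ± 21.0 and Jun at 54.4 ± 4.02 CPM per kb. The range of Junb over the lines, 44.9 to 86.9 CPM per kb, took in the ranges of both Jund and Jun, so the order of these 3 was not resolved. Maff followed at 20.2 ± 16.6, Fosl2 at 7.05 ± 2.62 and Atf3 at 2.68 ± 0.473 CPM per kb, and the ranges of these 3 did not overlap each other. Fosb, at 0.884 ± 0.876 CPM per kb, and Fos, at 0.870 ± 0.441 CPM per kb, had overlapping ranges and lay below Atf3 in every DMSO library. The lengths are those of all annotated exons joined, and Fosl2 has the longest, 9.68 kb, so a transcript that uses only part of them is understated on this scale.

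Promoter windows from RefSeq (build GRCm38.p6, 250 bases before to 50 bases after a transcript start) were matched by symbol for 8 of the 9 members, in 10 windows, of which Maff had 3. Both strands were searched for the TRE (TGACTCA), the CRE (TGACGTCA), the ETS core (CCGGAAG) and the CArG box bound by SRF. Of all 32851 windows in the table, 5.20% held the TRE, 1.79% the CRE, 8.86% the ETS core and 1.63% the CArG box. Among the members, 1 CRE was found, in Maff, and no other of these 4 motifs. Looser forms of the CRE were added after the windows had been read: TGACNTCA, held by 8.83% of all windows, was found in Jun and Maff, and the core TGACGT, held by 7.51%, in Fos, Atf3 and Maff. Both forms include the full CRE. Windows of 4 members that differed in their response are printed on the strand of the gene, with the matched letters in capitals. They are the minus strand of chr4:95052173-95052472 for Jun, the plus strand of chr5:32136222-32136521 for Fosl2, the minus strand of chr1:191183284-191183583 for Atf3 and the plus strand of chr15:79347270-79347569 for Maff.
Jun: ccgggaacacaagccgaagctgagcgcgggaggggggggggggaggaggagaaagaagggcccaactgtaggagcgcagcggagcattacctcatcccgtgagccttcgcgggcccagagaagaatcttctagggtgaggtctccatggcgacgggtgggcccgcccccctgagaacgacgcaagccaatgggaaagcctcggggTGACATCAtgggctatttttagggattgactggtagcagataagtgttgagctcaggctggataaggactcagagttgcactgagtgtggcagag
Fosl2: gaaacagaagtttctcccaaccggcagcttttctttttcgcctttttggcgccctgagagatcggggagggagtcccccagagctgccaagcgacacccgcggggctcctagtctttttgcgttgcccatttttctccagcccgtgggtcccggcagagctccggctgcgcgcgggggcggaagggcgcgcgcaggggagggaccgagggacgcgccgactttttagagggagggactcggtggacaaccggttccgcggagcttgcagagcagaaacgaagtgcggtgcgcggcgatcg
Atf3: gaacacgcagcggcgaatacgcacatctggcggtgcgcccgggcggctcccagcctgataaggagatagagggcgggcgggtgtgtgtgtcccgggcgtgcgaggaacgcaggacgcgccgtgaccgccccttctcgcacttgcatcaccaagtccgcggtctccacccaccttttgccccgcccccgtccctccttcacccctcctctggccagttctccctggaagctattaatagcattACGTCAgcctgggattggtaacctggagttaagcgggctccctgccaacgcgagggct
Maff: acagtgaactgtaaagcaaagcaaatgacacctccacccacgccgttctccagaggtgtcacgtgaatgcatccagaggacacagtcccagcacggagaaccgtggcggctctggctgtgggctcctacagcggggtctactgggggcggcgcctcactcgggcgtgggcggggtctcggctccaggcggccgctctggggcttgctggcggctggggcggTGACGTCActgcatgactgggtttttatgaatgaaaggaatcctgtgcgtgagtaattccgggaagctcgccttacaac
The match in Jun begins 45 bases before the transcript start of its window, that in Atf3 8 bases before its own on the opposite strand, and that in Maff 29 bases before its own. The capitals mark letters only, and binding was not measured. The Jund window (chr8:70697489-70697788) lies upstream of the start of Jund in the annotation, position 70698949, and is not printed. The Atf3, Fosl2 and printed Maff windows lie inside their genes, which the annotation starts at positions 191218039 (minus strand), 32135801 and 79346621. Whether the transcript starts of the windows are used in these cells was not tested.

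Both inhibitors were present in Combo. In Combo against DMSO, 3 of the 9 members were called in the unpaired fit, Fosl1 lower and Fosl2 and Jund higher, where 14.4% of all tested genes were called. In the fit that blocks on cell line, 7 of 9 were called, where 54.8% of all genes were: Fosl1, Jun and Maff lower, and Fosl2, Junb, Jund and Atf3 higher. The median absolute log2 fold change of the 9 members was 1.17, and that of all tested genes 0.52. For 4 members the Combo and DMSO libraries did not overlap in CPM, Fosl1 below and Fosl2, Jund and Atf3 above, where 29.9% of all genes did not overlap.

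**Figure D1:**
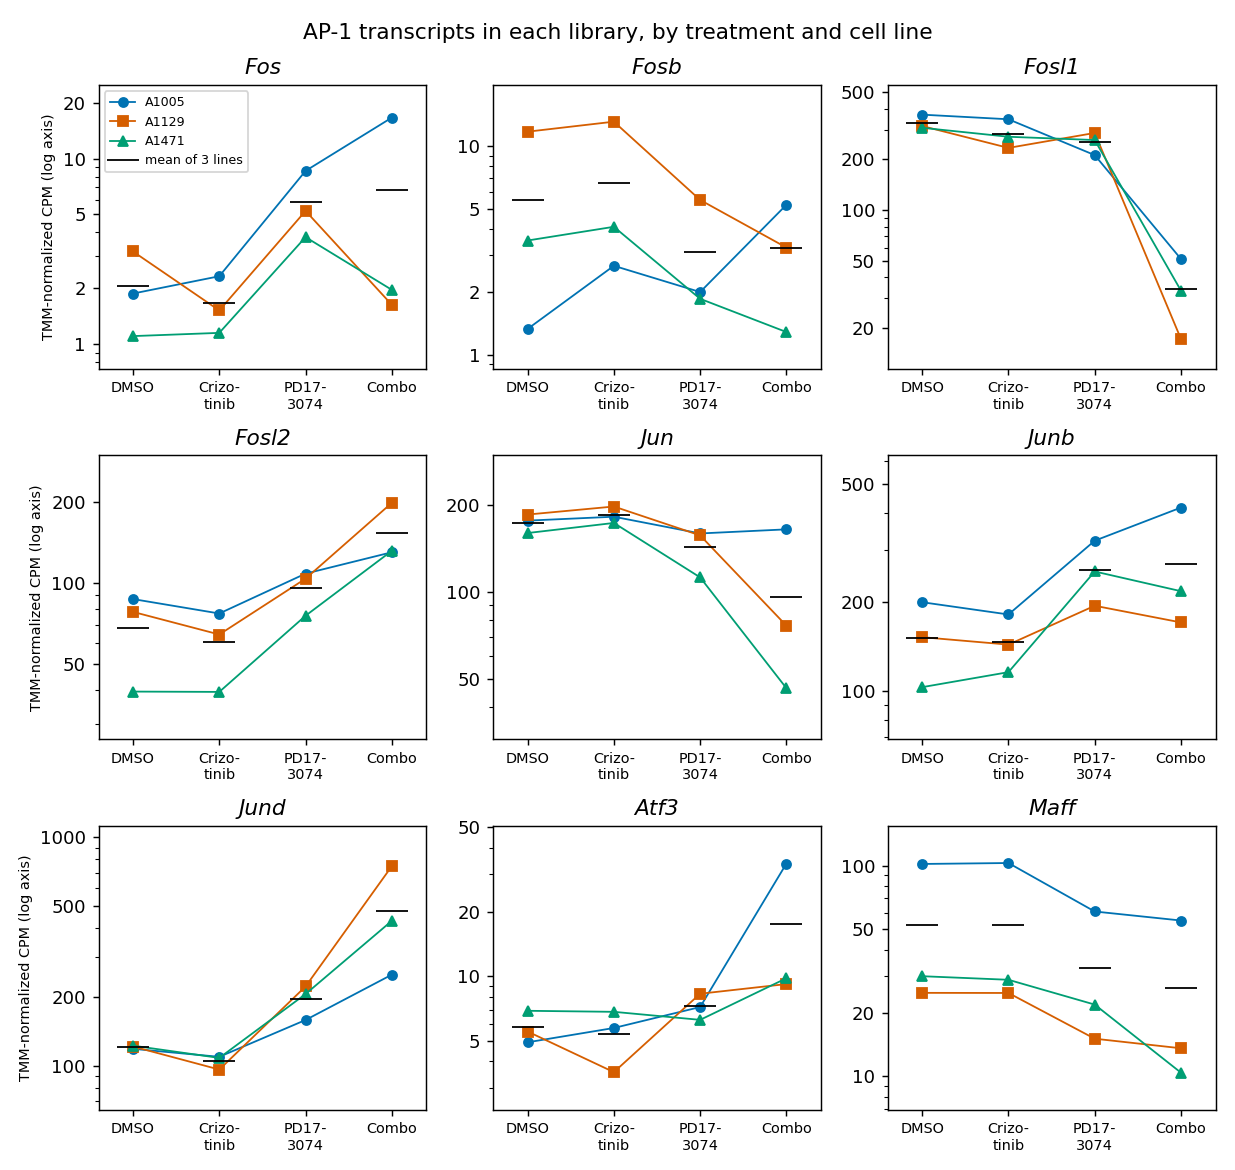
TMM-normalized CPM of the 9 AP-1 transcripts (log axis, a separate scale for each gene) in each treatment; coloured points joined by lines are the 3 cell lines and black bars their arithmetic mean. Fosl1 falls from 308 to 368 CPM in DMSO to 17.2 to 51.4 CPM in Combo, whereas Jund goes from 118 to 122 CPM to 250 to 747 CPM, and Fos, Fosb and Atf3 move differently in A1005 than in the other lines.

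Among the Fos genes, Fosl1 encodes FRA1, a Fos-related partner of Jun proteins that lacks the transactivation domain of FOS and is abundant in invasive and mesenchymal tumour cells. The gene lies on the plus strand at chr19:5447547-5455946 (mm10) with 4 exon blocks. Fosl1 had 4718, 4795 and 4458 counts in DMSO (A1005, A1129 and A1471 in this order, as throughout), 5062, 3543 and 3789 in Crizotinib, and 3509, 4010 and 3659 in PD173074. In Combo it had 924, 275 and 442 counts. All 3 Combo libraries lay far below the other 9, and A1129 was the lowest. The mean was 331 ± 32.9 CPM in DMSO and 34.0 ± 17.1 CPM in Combo (SD, n = 3). The fold change was 9.72-fold lower, a log2 fold change of -3.28 ± 0.36 (SE, adjusted p = 5.44e-04 by edgeR's quasi-likelihood test), and it was lower in 3 of 3 lines, at -2.84, -4.18 and -3.20. Without A1471 the unpaired fit no longer called it (adjusted p = 0.0747) although its log2 fold change was -3.31. The last 2767 bases of the Fosl1 gene region overlap Ccdc85b, whose own log2 fold change was -0.05 (adjusted p = 0.908).

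Fosl2 encodes FRA2, the other Fos-related protein. It had 1117, 1188 and 572 counts in DMSO, and 1128, 975 and 548 in Crizotinib. In PD173074 it had 1794, 1451 and 1062 counts, and in Combo 2342, 3171 and 1747. The Combo libraries were all above the DMSO libraries, and A1471, the lowest line in DMSO, had the largest log2 fold change, 1.73, while A1129 reached the highest level. Fosl2 rose from 68.3 ± 25.3 CPM to 153.6 ± 39.1 CPM, a log2 fold change of 1.17 ± 0.34 (SE, adjusted p = 0.0465 by edgeR's quasi-likelihood test). This call sits close to the threshold. It was not made without the filter on low counts (adjusted p = 0.0704), with only the compared libraries in the fit (0.107) or without A1005 (0.0626), A1129 (0.314) or A1471 (0.125), whereas the fit with the cell line block called it at adjusted p = 4.32e-04.

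Fos, the immediate early gene after which the family is named, was scarce, and its values rest on few reads. Fos had 24, 48 and 16 counts in DMSO and 34, 23 and 16 in Crizotinib. It had 142, 73 and 53 counts in PD173074, and 299, 26 and 26 in Combo. In PD173074 all 3 lines were above all 3 DMSO libraries, but in Combo only A1005 was. The Combo log2 fold change against DMSO, 1.72 ± 0.85 (SE), did not pass the test (adjusted p = 0.218 by edgeR's quasi-likelihood test, 0.109 with the block), and the lines gave 3.06, -0.90 and 0.76. Without A1005 it became -0.23.

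Fosb, a further immediate early gene, had 17, 178 and 51 counts in DMSO, 39, 198 and 57 in Crizotinib, 33, 77 and 26 in PD173074, and 94, 52 and 17 in Combo. In DMSO the A1129 library was highest and A1005 lowest, and in Combo A1005 was highest. The Combo log2 fold change was -0.76 ± 0.89 (SE, adjusted p = 0.639 by edgeR's quasi-likelihood test), and without A1129 it became 0.42.

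Among the Jun genes, Jund rose most. It encodes JUND, which in many cell types is expressed at rest rather than induced, and which has been linked with slowed proliferation. The gene has 1 exon and lies on the plus strand at chr8:70698949-70700616 (mm10). Jund had 1516, 1842 and 1769 counts in DMSO and 1598, 1454 and 1502 in Crizotinib. It had 2619, 3101 and 2888 counts in PD173074, and 4497, 11913 and 5702 in Combo. The DMSO libraries lay within a narrow range, 118 to 122 CPM, and the PD173074 and Combo libraries were all above it. Combo reached 475.6 ± 251 CPM against 120.6 ± 1.98 CPM in DMSO, 3.94-fold higher (log2 fold change 1.98 ± 0.33 SE, adjusted p = 0.00421 by edgeR's quasi-likelihood test) and higher in 3 of 3 lines, at 1.08, 2.62 and 1.81. It was not called in the unpaired fit without A1129 (adjusted p = 0.0720) or A1471 (0.129). Gm11175, which overlaps 919 bases of Jund, had 49 to 57 counts in DMSO and 131 to 298 in Combo, with a log2 fold change of 1.82 (adjusted p = 0.00709). Whether counting used strand is not given in the sources used here, so reads of this overlap cannot be told apart. Gm11175 held few reads beside Jund, but reads of the overlap that were counted for neither gene, if any, cannot be seen. The overlap covers 919 of the 1668 exon bases of Jund, so its CPM per kb and its share of the family carry the same limit.

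Jun, the founding Jun gene and a strong transactivator, went the other way. Jun had 2255, 2809 and 2310 counts in DMSO, 2658, 2982 and 2404 in Crizotinib, 2631, 2188 and 1576 in PD173074, and 2955, 1220 and 617 in Combo. In A1129 and A1471 the Combo libraries were the lowest of their line, but in A1005 Combo, at 164 CPM, lay within the range of DMSO, 159.5 to 184.7 CPM. The log2 fold change was -0.86 ± 0.37 (SE, adjusted p = 0.156 by edgeR's quasi-likelihood test), and -0.97 ± 0.28 with the cell line block (adjusted p = 0.0138), at -0.10, -1.27 and -1.77 in the lines. The call with the block was lost without A1129 (adjusted p = 0.132) or A1471 (0.130), and without A1005 the unpaired fit called Jun at -1.48 (adjusted p = 0.0236). Junos, which overlaps 689 bases of Jun, had a log2 fold change of -1.86 (adjusted p = 0.0466).

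Junb encodes JUNB, which in some settings opposes JUN. It had 2561, 2316 and 1495 counts in DMSO and 2660, 2177 and 1614 in Crizotinib. It had 5338, 2718 and 3567 counts in PD173074, and 7511, 2726 and 2887 in Combo. Each line was higher in PD173074 and in Combo than in DMSO, but the groups overlapped because A1129 gained little. The Combo log2 fold change was 0.82 ± 0.37 (SE, adjusted p = 0.168 by edgeR's quasi-likelihood test), and 0.77 ± 0.20 with the cell line block (adjusted p = 0.00712), a call that was lost without A1005 (0.0639) or A1471 (0.0590). Prdx2, which overlaps 351 bases of Junb, had a log2 fold change of 0.54 (adjusted p = 0.302).

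Atf3 encodes a stress-induced factor that pairs with Jun proteins and can repress transcription. Atf3 had 63, 84 and 100 counts in DMSO, 84, 54 and 95 in Crizotinib, 119, 116 and 88 in PD173074, and 607, 147 and 130 in Combo. All Combo libraries were above all DMSO libraries, with A1005 far above the other two. The log2 fold change was 1.60 ± 0.50 (SE, adjusted p = 0.0580 by edgeR's quasi-likelihood test), and 1.45 ± 0.43 with the block (adjusted p = 0.0159). DESeq2 called it at adjusted p = 0.0111, and limma-voom (0.107) and the fit without the filter on low counts (0.115) did not. Without A1005 the log2 fold change was 0.63, and the fit with the block no longer called it (adjusted p = 0.125).

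Maff encodes a small Maf protein, which has no transactivation domain of its own. It had 1307, 379 and 433 counts in DMSO, 1509, 377 and 400 in Crizotinib, 1004, 211 and 308 in PD173074, and 989, 217 and 138 in Combo. Maff was lower in Combo than in DMSO in 3 of 3 lines, at log2 fold changes of -0.89, -0.87 and -1.51, but A1005 stood well above the other lines under every treatment, so the groups overlapped. The unpaired fit gave -0.99 ± 0.88 (SE, adjusted p = 0.515 by edgeR's quasi-likelihood test) and the fit with the block -1.06 ± 0.16 (adjusted p = 3.57e-04).

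In edgeR's fits over all 12 libraries, with and without the block, neither inhibitor alone gave a call among the members. For Crizotinib against DMSO, edgeR called 0 of 9 members in the unpaired fit, where 0% of all genes were called, and 0 with the block, again with a background of 0%. Also 0 members had an unadjusted p under 0.05, and DESeq2 and limma-voom called 0. The log2 fold changes were small, with a median absolute value of 0.18 against 0.09 for all genes. Fosl1 had a log2 fold change of -0.22 ± 0.33 (SE), and Jund one of -0.21 ± 0.32 (SE).

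For PD173074 against DMSO, edgeR called 0 of 9 in the unpaired fit (background 0%) and 0 with the block, where 2.14% of all genes were called. In the unpaired fit 0 members had an unadjusted p under 0.05, and DESeq2 and limma-voom without the block called 0. With the block, the unadjusted p of edgeR's quasi-likelihood test was 0.0383 for Fos, 0.0164 for Fosl2, 0.00249 for Junb, 0.0258 for Jund and 0.00221 for Maff. It was above 0.05 for Fosb, Fosl1, Jun and Atf3, and the share of all genes under 0.05 was not computed. DESeq2 with the block, an alternative chosen after seeing the data, called 2, Junb (adjusted p = 0.00592) and Maff (0.00934), where 2.17% of 28504 genes fitted, those of low count included, were called. With the block and without A1129, edgeR called Junb (adjusted p = 0.0495), where 0.950% of all genes were called. The median absolute log2 fold change was 0.68 for the members and 0.17 for all genes. For agreement of sign a share over all genes was not computed, and 7 of 9 members had the same sign in all 3 lines. The values of those with higher levels were 1.51 ± 0.85 for Fos, 0.76 ± 0.37 for Junb, 0.70 ± 0.32 for Jund and 0.49 ± 0.34 for Fosl2 (log2 fold change ± SE). Those of the members with lower levels were -0.38 ± 0.33 for Fosl1, -0.28 ± 0.37 for Jun and -0.68 ± 0.87 for Maff. Fosb, at -0.82 ± 0.89, and Atf3, at 0.33 ± 0.49, differed in direction between lines. The lowest adjusted p with the block was 0.0706, for Maff.

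**Figure D2:**
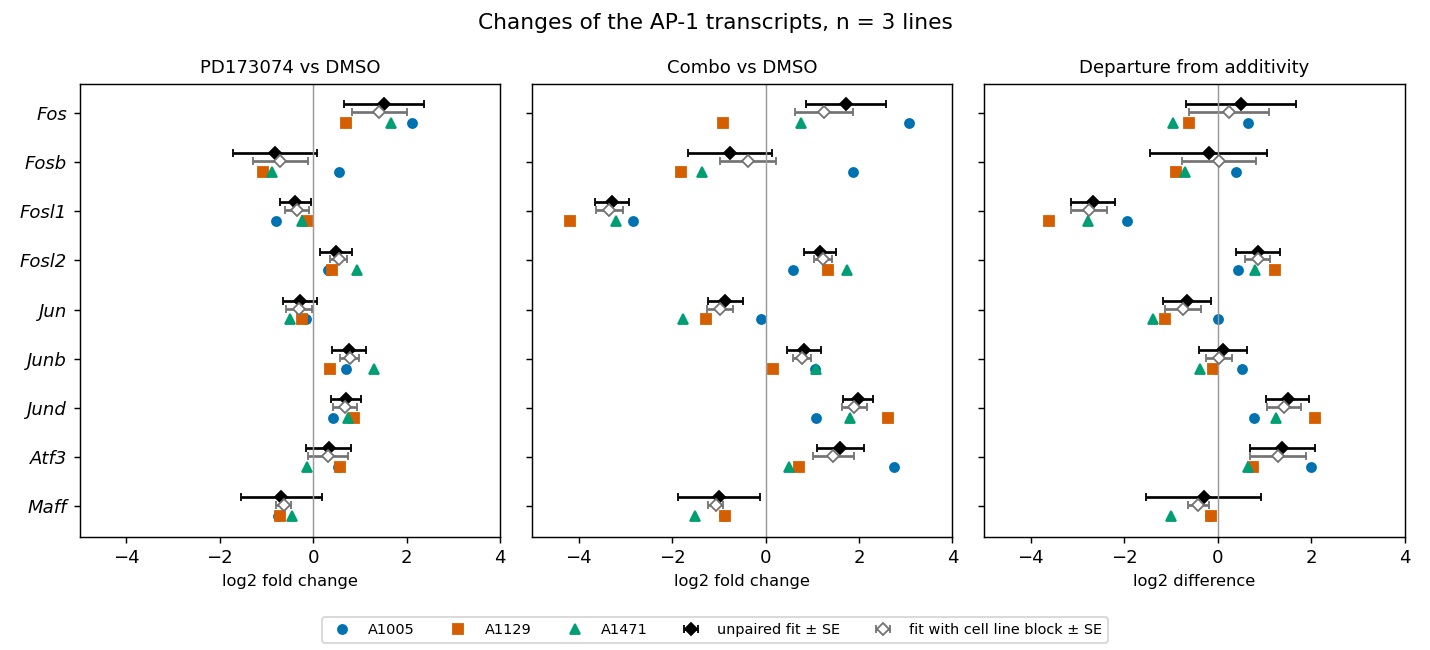
Log2 fold changes of the 9 AP-1 genes for PD173074 against DMSO and for Combo against DMSO, and the log2 departure of Combo from the sum of both inhibitors. Filled diamonds are the unpaired fit, open diamonds the fit that blocks on cell line (bars, SE), and coloured points the 3 lines. In Combo, Fosl1 lies at -3.28 and Jund at 1.98, and the departure of Fosl1 is -2.68.

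Adding PD173074 to Crizotinib (Combo against Crizotinib) gave 4 members called in the unpaired fit, where 13.2% of all genes were called, and 8 with the block, all but Fosb, where 53.4% were. Fosl1 fell, with a log2 fold change of -3.06 ± 0.35 (SE, adjusted p = 8.55e-04 by edgeR's quasi-likelihood test). Jund rose by 2.19 ± 0.33 (adjusted p = 0.00292), Fosl2 by 1.35 ± 0.34 (adjusted p = 0.0291) and Atf3 by 1.71 ± 0.50 (adjusted p = 0.0494). The Atf3 call was lost without any 1 of the lines, at adjusted p = 0.200 without A1005, 0.179 without A1129 and 0.177 without A1471. The Fosl1 call was lost without A1471 (adjusted p = 0.0822), that of Jund without A1129 (0.0576) or A1471 (0.116), and that of Fosl2 without A1129 (0.257) or A1471 (0.0947). Adding Crizotinib to PD173074 (Combo against PD173074) gave 1 member called in the unpaired fit, Fosl1, where 4.77% of all genes were called. Its log2 fold change was -2.90 ± 0.35 (SE, adjusted p = 0.00152), and without A1471 it was not called (adjusted p = 0.145). With the block 3 were called, Fosl1, Fosl2 and Jund, where 39.8% of all genes were. Jund had a log2 fold change of 1.28 ± 0.32 (adjusted p = 0.0515, and 0.00490 with the block), and Fosl2 one of 0.68 ± 0.34 (adjusted p = 0.323, and 0.0152 with the block). These comparisons share their Combo libraries, and those against DMSO share their DMSO libraries.

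Whether the combination differed from the sum of both single effects on the log2 scale was tested as a contrast of all 4 treatments. In the unpaired fit 1 member was called, Fosl1, where 0.918% of all genes were called, and with the block 2, Fosl1 and Jund, where 16.2% were. Fosl1 was lower than the sum by -2.68 ± 0.47 (log2 ± SE, adjusted p = 0.0336 by edgeR's quasi-likelihood test, 0.00147 with the block), and below it in 3 of 3 lines, at -1.95, -3.62 and -2.78. Without A1005, A1129 or A1471 the unpaired fit did not call it (adjusted p = 0.107, 0.268 and 0.691). Jund was above the sum by 1.49 ± 0.45 (adjusted p = 0.252, and 0.0286 with the block), in 3 of 3 lines. Fosl2 had a departure of 0.86 ± 0.48, Atf3 one of 1.38 ± 0.69 and Jun one of -0.66 ± 0.52, and none of the 3 was called in either fit.

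The make-up of the family was described as the share of each gene in the summed CPM per kb of the 9 genes, with no test. In DMSO the 4 Fos genes held 44.4 ± 1.62% of this total and the 3 Jun genes 49.9 ± 2.34% (SD, n = 3). In Crizotinib the Fos genes held 41.6 ± 2.09% and the Jun genes 52.4 ± 4.84%, and in PD173074 32.2 ± 4.16% and 64.1 ± 2.14%. In Combo the Fos genes held 7.60 ± 2.42% and the Jun genes 88.5 ± 5.76%. For either share the libraries of DMSO, PD173074 and Combo did not overlap each other. PD173074 alone thus lay outside the DMSO range too, between DMSO and Combo, whereas Crizotinib overlapped DMSO. The total itself was 387 ± 54.1 CPM per kb in DMSO and 486 ± 91.0 in Combo, with overlapping ranges. The Fosl1 share was 40.6%, 41.3% and 44.6% in the DMSO libraries and 5.42%, 1.45% and 4.03% in the Combo libraries. In the PD173074 libraries it was 24.2%, 32.7% and 30.7%. The Jund share was 15.9%, 19.4% and 21.6% in DMSO, 22.0%, 30.8% and 29.5% in PD173074, and 32.1%, 76.4% and 63.4% in Combo. In Combo Jund was the leading transcript in A1129 and A1471, whereas Junb led in A1005, with 38.9%. Fosl1 made up 94.9 ± 1.76% of the Fos genes in DMSO and 45.0 ± 14.7% in Combo. Without division by exon length Fosl1 made up 81.7% of the Fos genes in DMSO and 17.6% in Combo, and the Fos genes held 18.3% of the total in Combo, because the long Fosl2 then weighs more.

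**Figure D3:**
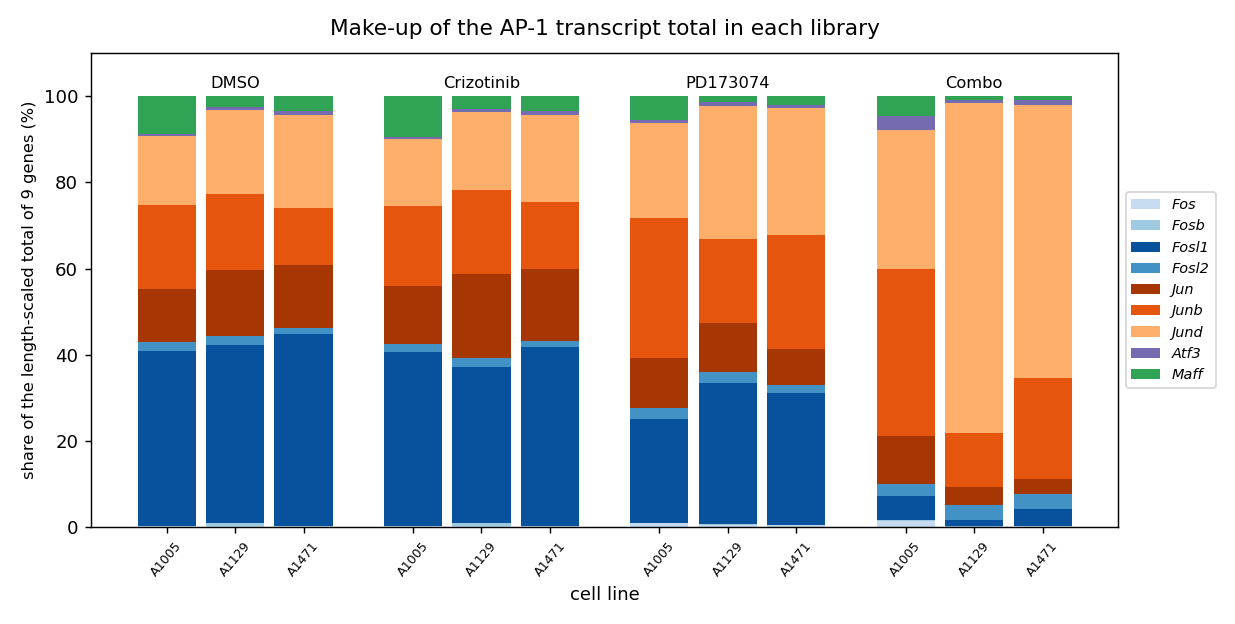
Stacked share (%) of each gene in the CPM per kb summed over the 9 AP-1 genes, 1 bar for each of the 12 libraries, grouped by treatment; blues are Fos genes and browns and oranges Jun genes. Fosl1 fills 40.6 to 44.6% of the DMSO bars, 24.2 to 32.7% of the PD173074 bars and 1.45 to 5.42% of the Combo bars. Jund fills 32.1 to 76.4% of the Combo bars.

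The lines differed in their AP-1 levels as well. With treatment as a covariate, edgeR's quasi-likelihood F test for the cell line called 5 of 9 members, Fos, Fosb, Fosl2, Junb and Maff, where 73.9% of all genes were called. Maff was higher in A1005 than in A1129 and A1471, with a mean log2 CPM of 6.27, 4.25 and 4.41 (adjusted p = 6.24e-07). Junb was also highest in A1005, with a mean log2 CPM of 8.05 against 7.36 and 7.33 (adjusted p = 0.00395). Fosl2 was lowest in A1471, at 5.98 against 6.63 in A1005 and 6.66 in A1129 (adjusted p = 0.00602). Averaged over the treatments, Fosb was highest in A1129 (adjusted p = 0.0199) and Fos in A1005 (adjusted p = 0.0307), but in DMSO Fos was highest in A1129, at 3.16 CPM against 1.87 CPM in A1005, and in Combo Fosb was highest in A1005. Fosl1, Jund, Jun and Atf3 were not called, at adjusted p = 0.235, 0.176, 0.0861 and 0.291.

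Other genes of the pathway were counted by list in Combo against DMSO, beside the background of 14.4% in the unpaired fit and 54.8% with the block. Of 26 genes known as AP-1 targets, 25 were tested, and 6 fell and 0 rose, with a median log2 fold change of -0.96 against 0.02 for all genes. With the block, 14 fell and 3 rose. Areg, the EGF receptor ligand amphiregulin, fell by 5.71 on the log2 scale (adjusted p = 0.00259), and Ccnd1, the G1 cyclin, fell by 5.29 (adjusted p = 4.59e-05). Spp1, the secreted matrix protein osteopontin, fell by 2.99 (adjusted p = 0.0206), and Plaur, the urokinase receptor, by 2.93 (adjusted p = 0.0101). Cd44 and Hbegf were the others that fell. Such genes answer to many factors besides AP-1, and the binding of AP-1 to them was not measured. Of 26 upstream kinases and nuclear regulators, 25 were tested and 1 fell, Rps6ka1, which encodes the ERK-activated kinase RSK1, with a log2 fold change of -1.20 ± 0.15 (SE, adjusted p = 0.00115). The median of that list was -0.03, and with the block 6 rose and 7 fell. Of 14 further dimer partners, 11 were tested and 0 were called in the unpaired fit, with a median of 0.05, and with the block 4 rose, Maf and Jdp2 among them, and 2 fell, Atf4 and Mafk. Of 7 heat shock genes that rise on handling and dissociation, 0 were called in the unpaired fit, with a median of 0.29, and with the block 4 rose and 2 fell. Their summed level was 2903 to 4044 CPM in DMSO and 2185 to 3198 CPM in Combo.

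The genes with the most similar pattern were ranked by Pearson's r of log2 CPM, centred within each cell line, over the 12 libraries among 9605 genes that are no members. These values are a description: the libraries share 3 lines and the Combo libraries lie apart from the rest, so genes that respond to the combination correlate with each other. Nearest to Fosl1 were Tuba1c (r = 0.994), a tubulin, Hnrnpf (r = 0.994), an RNA-binding protein, and Rcc1 (r = 0.993), the nucleotide exchange factor of Ran. Among those nearest to Jund were Elf1 (r = 0.995), an ETS factor, and Mrgprf (r = 0.991). Fosl2 was nearest to Mmp14 (r = 0.991), a membrane-bound metalloproteinase, Scrn1 (r = 0.991) and Ablim1 (r = 0.990), and Jun to Fkbp1a (r = 0.993), Bcl2 (r = 0.986) and Hes1 (r = 0.985). Maff was nearest to Nkap (r = 0.985), Gstp1 (r = 0.979) and Lipg (r = 0.978). The leading values were lower for Junb (Cyp1b1, r = 0.966; Dnajc5, r = 0.959; Gdnf, r = 0.957) and for Fos (Nek6, r = 0.951; Vegfc, r = 0.931; Il13ra1, r = 0.922). They were 0.949 for Fosb with Thumpd3, 0.937 with Sema6d and 0.933 with Cplx2. For Atf3 they were 0.919 with C030006K11Rik, 0.913 with Akt1s1 and 0.912 with Ddx5.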

How the data were processed

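Tumourspheres of 3 lines under 4 treatments gave 12 libraries, and treatment and line were taken from the sample labels. The authors deposited raw counts, whole numbers of reads per gene. The submitters' processing notes name bcl2fastq, STAR, HTSeq and the build mm10, and the counting parameters, strand included, are not given in the sources used here. Exon lengths and coordinates were read from GENCODE for that build. Total counts were 13031492 to 17750476 per library, and tested genes held at least 99.85% of them.

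Genes were filtered with filterByExpr (minimum count 10, total 15), scaled by TMM and fitted in edgeR 4.0.16 (R 4.3.3) over the 12 libraries; quasi-likelihood p-values were adjusted after Benjamini-Hochberg and called under 0.05. This fit is unpaired, after the study's methods. The cell line in the labels pairs the libraries: deviations from the treatment means correlated at 0.871 on average between libraries of a line (lowest 0.766, 18 pairs). Between lines the value was -0.422, but taking deviations from a mean of 3 lines by itself pushes that value below 0. The fit with the replicate block is therefore given where it changes a call. With 1 library per line and treatment, p-values of the unpaired fit measure the spread between lines. Those of the blocked fit measure how far the treatment change varied between lines. The F test for the cell line comes from the blocked fit. Its p-values measure how far the line differences varied between treatments, not the spread of repeats within a line. Log2 CPM used a prior count of 2. Alternatives were DESeq2 1.42.0, limma-voom (limma 3.58.1), other scalings and filters, a log2 fold change of at least 1.5, only the compared libraries, and each line left out; the block with DESeq2 or with a line left out was added after seeing the data. On counts simulated for Combo against DMSO, all 200 genes changed 4-fold among 13497 were recovered. With differences between lines built in, the unpaired fit recovered 12.0% of 200 and the blocked fit 99.5% (13561 genes). Every changed gene had the same 4-fold size in every line, as the blocked fit assumes. The line differences and the spread between libraries were set and not taken from these data, so the recovered shares do not carry over to these libraries. Recovery where the response differs between lines, as for Jun (log2 fold changes -0.10, -1.27 and -1.77), was not tested. The 9 members and the gene lists were chosen with earlier results of these data known. Besides the members, the text names up to 4 called genes per list with the largest change in Combo against DMSO, and the 3 nearest patterns per member, all at an average log2 CPM of at least 3; Cd44, Hbegf and the dimer partners named as called with the block were chosen after their values were seen. A few genes that these rules would name are not reported here. Marker genes are named as checks. Figures used Python 3.11.15 and matplotlib 3.10.9.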

Additional observations from a re-analysis of the deposited data

Results flagged for a closer look

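Opposite changes between the lines, each outside its own 95% counting interval, were found for 3 members, and none of these differences between lines was tested, since each line has 1 library per treatment. Values are log2 ratios of normalised counts within a line. For Combo against DMSO, Fos gave 3.15 in A1005 and -0.95 in A1129, and Fosb 1.98 in A1005 but -1.84 in A1129 and -1.46 in A1471. For Combo against Crizotinib, Fosb was 0.97 for A1005, but for A1129 -2.00 and for A1471 -1.68. For Combo against PD173074, Fos gave 0.95 in A1005 but -1.68 in A1129 and -0.94 in A1471, Fosb 1.39 in A1005 and -0.76 in A1129, and Junb 0.37 in A1005 but -0.19 in A1129 and -0.22 in A1471. In each of these comparisons A1005 was the line that went up. For Crizotinib against DMSO, Junb gave -0.14 in A1005 and 0.17 in A1471. The intervals cover counting error only.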

How the results depend on the processing

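The direction of Fosl1, Fosl2, Jund, Jun, Atf3 and Maff in Combo against DMSO held under every alternative run. Signs changed for Fos and Fosb there, and elsewhere for Junb, for Fos in Combo against PD173074 (0.20, and -0.17 with the replicate block) and for Fosb in the departure (-0.19, and 0.03 with the replicate block). Leaving out each line in turn, Fos ranged from -0.23 (without A1005) to 2.63, and Fosb from -1.73 to 0.42 (without A1129); with the replicate block, Fos was -0.16 without A1005 and 2.31 without A1129 (adjusted p = 0.0187), and Fosb was -1.68 without A1005 (adjusted p = 0.00125), 0.44 without A1129 and 0.045 without A1471. Junb in Combo against PD173074 (0.06) was -0.012 by limma-voom, -0.0021 with the replicate block, and -0.20 (without A1005, in both fits) to 0.18 with a line left out. The counts of members called rose with the replicate block on cell line to 7 (Combo against DMSO), 8 (against Crizotinib), 3 (against PD173074) and 2 (departure from additivity). With DESeq2 and the block they were 7, 8, 4 and 3, and 2 for PD173074 against DMSO, where 25.4%, 25.2%, 18.7%, 9.63% and 2.17% of 28504 genes fitted were called. DESeq2's genes include those of low count that the filter removed for edgeR, so its shares and those of edgeR have different bases. Leaving out each line gave 0 to 4 calls for Combo against DMSO, 0 to 5 against Crizotinib, 0 to 2 against PD173074 and 0 in each case for the departure. Of all genes, 14.9% were called for Combo against DMSO without A1005, 2.35% without A1129 and 0.856% without A1471, and 0 for the departure without any 1 of the lines. In the same order of lines, the shares were 13.5%, 2.54% and 0.777% against Crizotinib, and 4.62%, 0.435% and 0.428% against PD173074. Leaving out each line with the block gave 5 to 7, 6 to 7, 1 to 5 and 0 to 4, and 0 to 1 for PD173074 against DMSO. Of all genes, these fits called 36.8% to 50.3% for Combo against DMSO, 34.8% to 48.2% against Crizotinib and 17.1% to 34.9% against PD173074. They called 3.02% to 12.4% for the departure and 0.0285% to 0.950% for PD173074 against DMSO. Without A1471, the unpaired fit called 0 members in Combo against DMSO, and without A1129 only Fosl1; with the block, Fosl1 in the departure was lost without A1471 (adjusted p = 0.0594). Combo against Crizotinib fell to 2 calls with only the compared libraries, where 4.79% of all genes were called. Combo against PD173074 rose to 2, Fosl1 and Jund, with DESeq2, with DESeq2's size factors and with at least 10 counts in every library, and the departure to 2 with DESeq2. For Combo against PD173074 these fits called 5.15%, 4.74% and 6.88% of the genes fitted, and for the departure DESeq2 called 1.42%. The cell line F test called 3 members without the Crizotinib libraries and 3 without the PD173074 libraries, and the share over all genes was not computed for these fits. Without division by exon length the share of Fosl1 in DMSO was 36.6%, that of Jund in DMSO 13.5%, and in Combo the Fos genes held 18.3% and the Jun genes 77.7%. The causes were not tested. The lowest counts in a library were 16 for Fos and 17 for Fosb.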
